A study of Mus musculus with 3 samples.

Results

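The collagen genes were followed in the hippocampus of adult male mice born to older or to young mothers. Their probes were found by gene name in the array files, as names made of Col, digits, a and digits and nothing more. The rule gave 69 probes of 44 genes among 39429 probes: 9 probes of 9 fibrillar genes (types I, II, III, V and XI), 14 probes of 8 basement membrane genes (types IV, XV and XVIII) and 46 probes of 27 other collagen genes. The older mothers (the AMA group) were 15 to 18 months old at pairing and the young mothers (the YMA group) 3 months, and all sires were 3 months old. The sons in both groups were taken at postnatal day 120. Total RNA of 3 sons was pooled per sample, with 3 pools per group, and each of the 3 arrays set 1 older-mother pool, labelled with Cy3, against 1 young-mother pool, labelled with Cy5. The dyes were never swapped, so the maternal age group and the dye cannot be told apart for any gene. Pools hide the spread between animals, and whether pools share litters is not stated in the labels.

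Collagens are proteins of 3 chains wound into a helix, in which glycine recurs at a fixed step along each chain. Fibrillar collagens build the fibres of meninges and vessel walls, and basement membrane collagens build the sheets beneath the endothelium, the choroid plexus epithelium and the meninges. The neural tissue of the adult brain holds little fibrillar collagen, while several membrane-spanning collagens, such as type XXV, are made by neurons. In RNA from whole tissue, fewer cells of a type and less RNA per cell cannot be told apart.

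The glycine repeat can be read in the probes themselves. In 2 of the 69 probes the whole 60-base sequence codes in 1 frame for the repeat of glycine and 2 further residues. They are shown because they are the protein's defining motif as measured on the array, with each glycine codon in capitals. The Col25a1 probe A_55_P2107711 lies at chr3:130270497-130270556 and the Col15a1 probe A_55_P2060386 at chr4:47283786-47283845, both in mm9, the build named in the deposited table, and both are written as the array files give them.
Col25a1 A_55_P2107711: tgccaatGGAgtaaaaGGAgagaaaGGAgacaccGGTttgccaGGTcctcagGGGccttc
Col15a1 A_55_P2060386: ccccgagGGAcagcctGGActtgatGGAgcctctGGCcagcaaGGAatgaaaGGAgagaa
Each holds 6 glycine codons.

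The arrays held 44397 spots each, of which 43020 were probe spots, and 0 probe spots were saturated. The median signal over background was 57 to 62 intensity units in Cy3 and 150.5 to 162.5 units in Cy5. Between 64.6% and 66.7% of probe spots were well above background in Cy3, and between 71.0% and 74.9% in Cy5. All 8 of 8 genes typical of hippocampal neurons, such as Prox1 of the dentate gyrus and Wfs1 of field CA1, were above background in both channels on every array. With 3 arrays, precision is limited throughout.

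Of the 69 collagen probes, 49 probes of 34 genes reached a signal well above background on every array in at least one of the channels, and these were tested. All 9 fibrillar probes passed, against 9 of 14 basement membrane probes and 31 of 46 other probes. In 40 of the 49 the signal was above background in both channels on every array. The other 9 passed through Cy5 alone, the channel of the young-mother pools. The filter can therefore favour probes that are lower in older-mother pools. The 10 genes with no tested probe were Col15a1, Col4a3, Col10a1, Col13a1, Col17a1, Col24a1, Col28a1, Col6a4, Col6a5 and Col6a6. Col15a1, a collagen of vascular and muscle basement membranes, had 2 probes that were not well above background on any array in either channel. Its remaining probe, the one printed above, was above background in Cy5 on 2 arrays and in Cy3 on 0. The brightest of the 3, A_52_P170882, had log2 ratios of 0.32, 0.02 and −0.13 on arrays 1, 2 and 3, which rest on signals near background. Of the 20 probes that were not tested, 17 were dim everywhere and 3 were above background on some arrays only.

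Among the tested collagen probes, 6 fell and 1 rose in sons of older mothers, and 42 did not pass the test. The probes that fell belong to Col1a2, Col18a1, Col6a1, Col8a1, Col9a2 and Col23a1, and the probe that rose to Col25a1. The Col8a1 probe was tested only because its Cy5 signal passed the filter. With a filter on both channels it dropped out and the other 6 calls stayed. The test was limma on the log2 ratios (older over young mothers), with Benjamini-Hochberg adjustment over all 27629 tested probes and a threshold of 0.05. The share called was 14.3% of the collagen probes, against a background of 16.6% of all tested probes. Lower calls made up 12.2% of the collagen probes, against a background of 9.65%, and higher calls 2.04%, against 6.96%, so the collagens were called about as often as other genes. When array 2 or array 3 was left out, 0 collagen probes were called (limma, with 12 and 18 probes at an unadjusted p under 0.05), while without array 1 there were 2 higher and 6 lower. Calls over all tested probes also became few, at 2.91% without array 2 and 0.293% without array 3, against 14.8% without array 1.

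**Figure D1:**
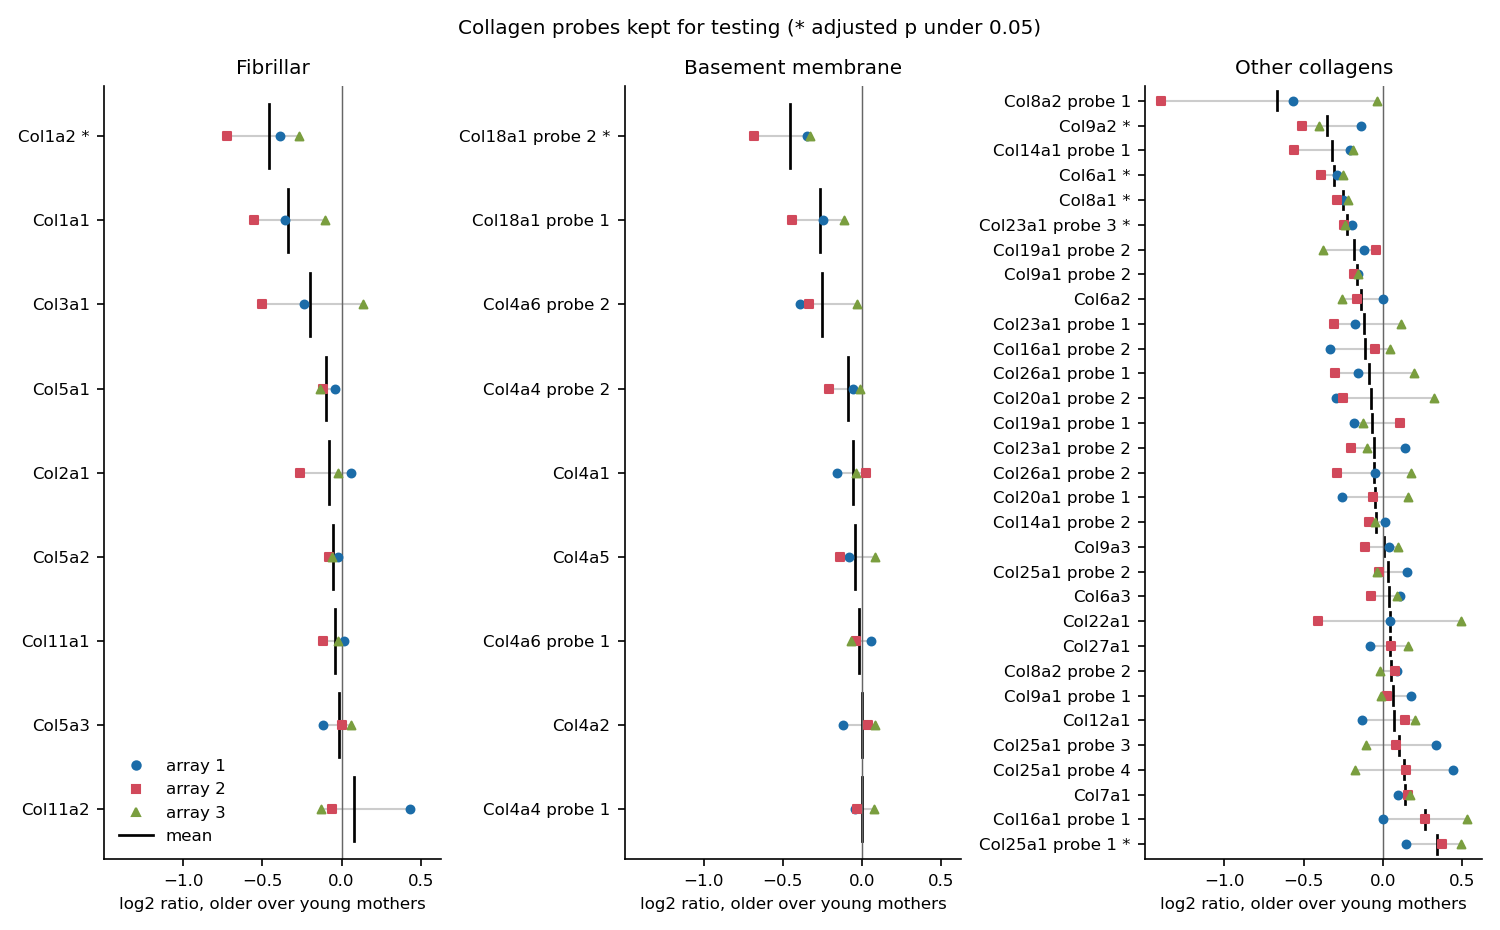
Log2 ratio of older over young mothers (x axis) of the 49 tested collagen probes, one row each, on arrays 1 (circles), 2 (squares) and 3 (triangles), with the mean as a black bar and an asterisk for an adjusted p under 0.05; numbered probes belong to genes with several. The 6 probes called lower and the 1 called higher are spread over the 3 panels, and array 2 gave the lowest value for 25 of the 49.

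The median log2 ratio of the tested collagen probes was −0.054, against −0.022 for all tested probes. It was −0.076 for fibrillar, −0.055 for basement membrane and −0.054 for other collagens. The mean was below 0 for 8 of 9 fibrillar probes, 9 of 9 basement membrane probes and 18 of 31 others. Over all tested probes it was below 0 for 15328 of 27629. Most of the collagen deviations were small, since only 1 of 49 probes had a mean beyond 0.5 in size (2.04%, against 1.75% of all tested probes). The collagen probes varied more between arrays than probes in general: their median SD over the 3 arrays was 0.165 log2 units, against 0.0891 for all tested probes. Only 20 of 49 had the same sign on all 3 arrays (40.8%, against 58.3%), with 17 of them below 0 (34.7%, against 33.3%). Array 2 gave the lowest ratio for 51.0% of the collagen probes, against 27.7% of all tested probes. The collagen medians were −0.086, −0.11 and −0.031 on arrays 1, 2 and 3. These shares were not tested against each other, because probes are not replicates.

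**Figure D2:**
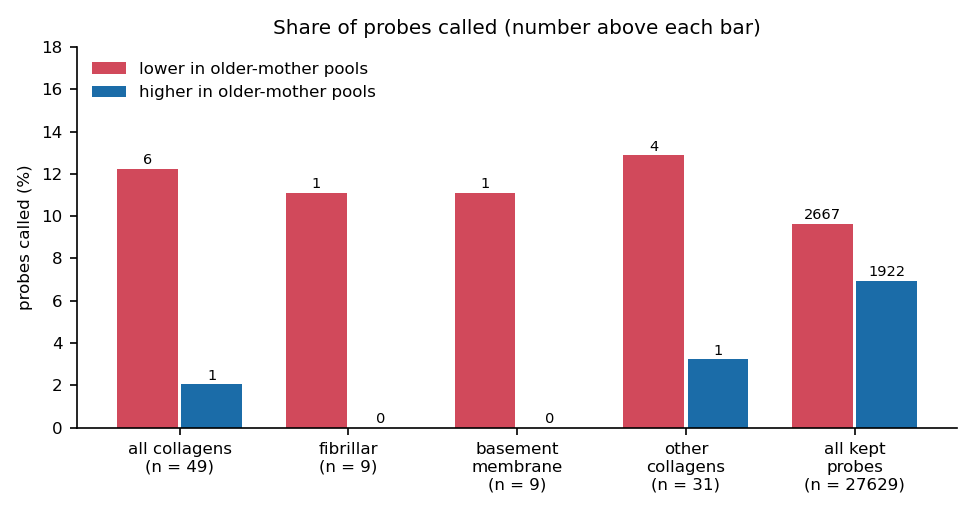
Share of tested probes called (y axis, %) for all collagens, each class and all tested probes, with red bars for lower and blue bars for higher in older-mother pools and the number of probes above each bar. Lower calls reach 12.2% of collagen probes and 9.65% of all tested probes; higher calls reach 2.04% and 6.96%.

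The centring of the arrays bears on these counts. The ratios used were normalised with an intensity-dependent loess curve. With each array centred on its median and no loess, the median of all tested probes stood at −0.34 and that of the collagens at −0.089, which is 0.25 above the median of all. Of all tested probes 83.7% were then called. The calls numbered 16 higher and 17 lower among the 49 collagen probes, so 48.5% of their calls were higher, against 14.3% with loess. Over all tested probes, 26.2% of calls were higher with median centring and 41.9% with loess. Relative to the median of all probes, Col1a2, Col18a1, Col6a1 and Col9a2 stayed lower and Col25a1 stayed higher with median centring, while Col8a1, at 0.39, and Col23a1, at 0.014, did not stay lower.

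Type I collagen, the main fibre protein of the meninges, is made of the chains of Col1a1 and Col1a2. Col1a2 fell in sons of older mothers. Its probe A_51_P182303, at chr6:4490619-4490678 in mm9, had normalised intensities of 797, 560 and 948 in the older-mother pools of arrays 1, 2 and 3 and 1046, 923 and 1141 in the young-mother pools. The older-mother pool was the lower one on every array, but the groups overlap, because the older-mother pool of array 3 lies above the young-mother pool of array 2. The mean log2 ratio was −0.46 ± 0.23 (SD, n = 3 arrays), a 1.38-fold lower level, with an adjusted p of 0.0325 in limma. With mean in place of median spot signals the ratio was −0.44 and the adjusted p 0.0545.

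Its partner Col1a1 did not pass. The probe A_55_P2118520, at chr11:94813115-94813174 in mm9, had 319, 264 and 378 intensity units in older-mother pools, against 409, 387 and 406 in young-mother pools. These groups do not overlap, with the lowest value on array 2, and the log2 ratio averaged −0.34 ± 0.22 with an adjusted p of 0.0561 (limma, n = 3). Both chains thus had ratios of like size on opposite sides of the threshold, and the difference between them was not tested. Col3a1, which is laid down with type I in extensible tissues, had 193, 161 and 263 units in older-mother pools, against 227, 228 and 239 in young-mother pools. Its log2 ratios of −0.24, −0.50 and 0.14 differ in sign, and the mean of −0.20 had an adjusted p of 0.271 (limma, n = 3).

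The minor fibrillar collagens lay closer to 0. Col5a1, a chain of the type V collagen that starts fibrils, had log2 ratios of −0.04, −0.12 and −0.13 (mean −0.10, adjusted p 0.190 in limma). Col11a1, of the related type XI, had 0.01, −0.11 and −0.02 (mean −0.04, adjusted p 0.581 in limma). The remaining fibrillar probes, for Col2a1, Col5a2, Col5a3 and Col11a2, had means between −0.08 and 0.08. For Col2a1, the cartilage collagen, Cy3 was above background on 2 of 3 arrays.

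**Figure D3:**
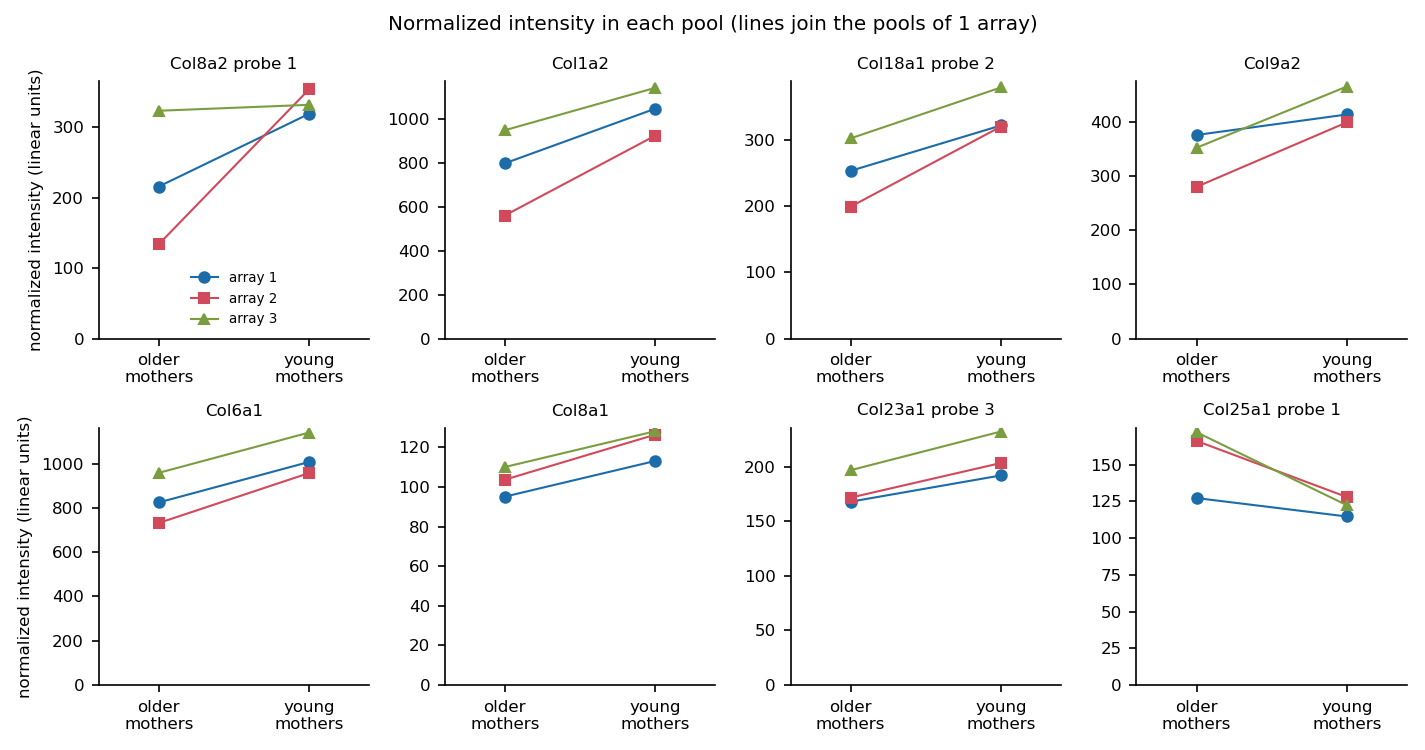
Normalised intensity (y axis, linear units from 0) in the older-mother pool (left) and the young-mother pool (right) of each array, joined by a line, for the 7 called collagen probes and Col8a2 probe 1. Every line rises to the young-mother pool except those of the Col25a1 probe, and array 2 has the steepest line for all but Col23a1 probe 3 and Col25a1 probe 1.

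In the basement membrane class, Col18a1 fell while the chains of the common type IV network did not pass. Col18a1 encodes a heparan sulphate-bearing collagen whose C-terminal fragment is endostatin. Its probe A_55_P2124791, at chr10:76515790-76515849 in mm9, had 253, 199 and 302 units in older-mother pools, against 321, 320 and 379 in young-mother pools. The groups do not overlap. The log2 ratio was −0.45 ± 0.20 (SD, n = 3), a 1.37-fold lower level, with an adjusted p of 0.0269 in limma. The second probe, A_55_P2059352, had ratios of −0.25, −0.44 and −0.12 with the pools not overlapping either, and its adjusted p was 0.0578 in limma. Among the collagen genes with several tested probes, Col18a1 was the only one in which each one lay below 0 on every array.

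Col4a1 and Col4a2 encode the chains of the type IV network in nearly all basement membranes, and both were near 1 to 1. Col4a1 had 511, 511 and 505 units in older-mother pools, against 569, 502 and 518 in young-mother pools, and a mean log2 ratio of −0.05 ± 0.09 (adjusted p 0.498 in limma, n = 3). Col4a2 had 826, 828 and 881 units in older-mother pools, against 899, 807 and 833 in young-mother pools, and a mean of −0.0019 ± 0.11 (adjusted p 0.984 in limma, n = 3). For both genes, array 1 alone had the young-mother pool clearly higher. The genes are neighbours that start head to head, and their promoter windows in the RefSeq table (250 bases before to 50 after each start, GRCm38.p6) overlap by 78 bases. Among the minor type IV chains, the 5 tested probes of Col4a4, Col4a5 and Col4a6 had means between −0.25 and −0.0011 and none was called. The lowest, the Col4a6 probe A_52_P516409, had an adjusted p of 0.0825 in limma, while the other Col4a6 probe averaged −0.02.

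The other collagens held 4 of the 6 lower probes. Col6a1, a chain of the beaded microfilaments that link cells to the matrix, had the smallest adjusted p of all collagen probes. Its probe A_55_P2128153, at chr10:76171538-76171597 in mm9, had 824, 731 and 958 units in older-mother pools, against 1007, 957 and 1140 in young-mother pools. The fall was alike on the 3 arrays, at −0.29, −0.39 and −0.25 (mean −0.31 ± 0.07, 1.24-fold lower, adjusted p 0.0225 in limma). The groups overlap slightly, with the older-mother pool of array 3 just above the young-mother pool of array 2. Col6a2 and Col6a3, whose chains join that of Col6a1, were not called, with means of −0.14 and 0.04.

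Col9a2, a chain of a collagen that decorates fibrils, had 376, 280 and 352 units in older-mother pools, against 413, 399 and 465 in young-mother pools, without overlap. Its log2 ratios were −0.14, −0.51 and −0.40 (mean −0.35 ± 0.19, adjusted p 0.0412 in limma). Its partner Col9a3 had a mean of 0.01 with an adjusted p of 0.925 in limma, from ratios of 0.04, −0.11 and 0.10. Col9a1, the remaining chain, had one probe at −0.16 on average (adjusted p 0.0595 in limma) and another at 0.07.

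Col8a1 and Col8a2 encode the short-chain network collagen of vessel walls and of the corneal endothelium. Col8a1 had 95.1, 104 and 110.1 units in older-mother pools, against 113, 126 and 128 in young-mother pools, without overlap. The ratio was −0.25 ± 0.03 (n = 3, adjusted p 0.0268 in limma), but this is a dim probe whose Cy3 signal was above background on 1 of 3 arrays. Col8a2 had the ratio farthest from 0 of all tested collagen probes and was not called. Its probe A_52_P302544 had 216, 134 and 323 units in older-mother pools, against 319, 354 and 332 in young-mother pools. The log2 ratios of −0.56, −1.40 and −0.04 averaged −0.67 ± 0.69 (adjusted p 0.109 in limma), and without array 2 the mean was −0.30. The second Col8a2 probe, at 0.05 on average, went the other way.

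The membrane-spanning collagens gave one lower and one higher call. Col23a1 probe A_55_P2086978 had 168, 172 and 197 units in older-mother pools, against 192, 203 and 232 in young-mother pools. The difference was small and even across arrays (−0.23 ± 0.03, adjusted p 0.0326 in limma), with overlapping pools, and the other 2 Col23a1 probes, at −0.12 and −0.05, were not called.

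Col25a1 encodes the neuronal collagen whose shed ectodomain was found in amyloid plaques. Its probe A_52_P876623, at chr3:130301638-130301697 in mm9, had 127, 166 and 172 units in older-mother pools, against 115, 128 and 122 in young-mother pools. The pools overlap by less than 1 unit, and the log2 ratios of 0.15, 0.38 and 0.49 averaged 0.34 ± 0.17 (adjusted p 0.0385 in limma). The 3 further probes did not pass. The brightest, A_55_P2160750, had 463, 455 and 412 units in older-mother pools, against 341, 412 and 465 in young-mother pools, and its ratios were 0.44, 0.15 and −0.18. The brightest probe was thus highest on array 1 and below 0 on array 3, while A_52_P876623 was highest on array 3. The probe printed above, A_55_P2107711, averaged 0.03 and the probe A_55_P2107715 averaged 0.10. The probes match 2 transcript records in the array files, and the data do not show which transcripts were present.

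Of the 12 collagen genes with several tested probes, 9 had means of 1 sign and 3 had both (Col8a2, Col9a1 and Col16a1). In 3 of the 12 a probe was called, and in 0 of them were all probes called. The 2 Col26a1 probes lie 5 bases apart and had like values, −0.09 and −0.05. Of the tested probes, 3, for Col14a1, Col19a1 and Col23a1, were not well above background in Cy3 on any array, so their older-mother levels are uncertain. The Col14a1 probe A_55_P2124736, for a collagen that binds fibril surfaces, was 1.25-fold lower on average in older-mother pools. Its log2 ratios were −0.21, −0.56 and −0.18, and it was not called (adjusted p 0.0579 in limma). The Col19a1 probe A_51_P213676 and the Col23a1 probe A_51_P457557 were 1.05-fold and 1.09-fold lower on average, with adjusted p of 0.524 and 0.352 in limma. Each of the pair lay above 0 on 1 array, the Col19a1 probe at 0.11 on array 2 and the Col23a1 probe at 0.12 on array 3, and below 0 on the others. Setting the young-mother mean against the higher of the dimmest detected signal and the probe's own gave about the fitted folds. These folds therefore set no lower limit, and without dye swaps a dye bias in them was not tested. The normalised intensities of the pools did not overlap for 8 of 49 collagen probes (16.3%), 7 lower and 1 higher in older-mother pools, against 40.7% of all tested probes.

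The promoters of Col1a2 and Col25a1 are shown because a probe of each gene was called, lower for Col1a2 and higher for Col25a1. For Col25a1, 1 of 4 tested probes was called and the brightest was not, so a rise of the gene as a whole is not shown. The promoters are the 250 bases before each start from RefSeq on GRCm38.p6, at chr6:4505368-4505617 and chr3:130180595-130180844, both on the plus strand. Capitals mark the CCAAT motif, searched on both strands as CCAAT and ATTGG.
Col1a2 promoter: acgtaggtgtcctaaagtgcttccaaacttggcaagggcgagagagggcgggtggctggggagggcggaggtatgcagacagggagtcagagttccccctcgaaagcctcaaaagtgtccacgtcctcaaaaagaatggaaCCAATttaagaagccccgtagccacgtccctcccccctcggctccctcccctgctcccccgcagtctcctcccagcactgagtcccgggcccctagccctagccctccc
Col25a1 promoter: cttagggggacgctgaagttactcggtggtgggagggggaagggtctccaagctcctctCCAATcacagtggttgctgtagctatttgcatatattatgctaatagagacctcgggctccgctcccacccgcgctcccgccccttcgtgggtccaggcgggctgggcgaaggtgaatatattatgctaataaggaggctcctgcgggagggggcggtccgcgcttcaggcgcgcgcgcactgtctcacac
Each window holds 1 such match. Windows of 35 collagen genes were in the table, 38 windows in all, and 13 of them held CCAAT (34.2%, against 33.8% of 32851 windows of the same length). The motif GGGCGG, searched with its reverse CCGCCC, stood in 22 of 38 (57.9%, against 32.7%), and TATAAA, with its reverse TTTATA, in 5 (13.2%, against 12.4%). Col1a2 and Col25a1 both held GGGCGG. These matches describe letters in the windows and show no binding.

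Genes that act on collagen chains inside the cell included larger changes than the collagens themselves. One probe per gene, the brightest, was used for these lists, and over 21038 genes the background was 7.14% higher and 10.2% lower. Among 19 genes of collagen modification and folding, 4 rose, 1 fell and 14 did not pass. P4ha1, a prolyl 4-hydroxylase subunit that makes the hydroxyproline needed for a stable helix, had log2 ratios of 0.95, 1.04 and 1.15 (mean 1.05 ± 0.10, 2.06-fold higher, adjusted p 0.0112 in limma). P4ha1 was called higher in 14 of 14 other settings that changed the values or the samples. P4ha2, the related subunit, was 1.61-fold higher (0.69 ± 0.12, adjusted p 0.0127 in limma).

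Serpinh1, the collagen chaperone HSP47 of the endoplasmic reticulum, rose by 0.81 ± 0.39 on the log2 scale (ratios of 0.58, 0.60 and 1.26, adjusted p 0.0252 in limma). Crtap, a part of the prolyl 3-hydroxylation complex, fell by 0.40 (adjusted p 0.0188 in limma). Plod2, a lysyl hydroxylase named here after its value was seen, had a mean of 0.27 with an adjusted p of 0.0308 in limma. The median of the list was 0.023, and relative to all genes it stood at −0.13 with median centring. Leaving out array 1, 2 or 3 in turn gave 3, 3 and 1 higher calls and 3, 0 and 0 lower calls.

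**Figure D4:**
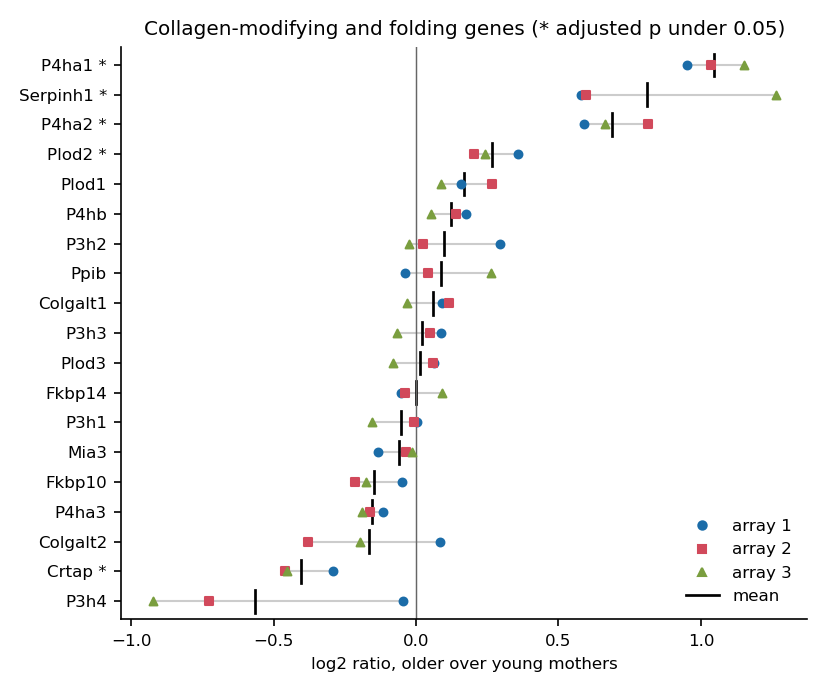
Log2 ratio of older over young mothers (x axis) of the 19 genes of collagen modification and folding on arrays 1 (circles), 2 (squares) and 3 (triangles), with the mean as a black bar and an asterisk for an adjusted p under 0.05. P4ha1, Serpinh1, P4ha2 and Plod2 were called higher and Crtap lower.

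Genes that act on collagen outside the cell were taken in 3 lists. Of 14 genes that trim procollagen or crosslink fibrils, 11 were tested and 0 were called in limma, with 2 at an unadjusted p under 0.05. The nearest were Loxl1, a lysyl oxidase family enzyme (−0.25, adjusted p 0.0828), and Pcolce, an enhancer of procollagen C-proteinase. Pcolce had ratios of −0.48, −1.38 and −0.08 (adjusted p 0.107 in limma). Of 14 collagen-degrading proteases and their inhibitors, 10 were tested and 0 called in limma, with 2 at an unadjusted p under 0.05. The smallest p belonged to Mmp15, a membrane-bound protease, at −0.27 (adjusted p 0.0513 in limma), and the inhibitor Timp3, at 0.18 (adjusted p 0.124 in limma). Among 10 tested collagen receptors, the integrin subunit Itga10 rose by 0.48 on the log2 scale (adjusted p 0.0239 in limma), and Itga11 and the endocytic receptor Mrc2 fell by 0.32 and 0.22. For Mrc2 the direction relative to all probes turned with median centring, and leaving out array 1, 2 or 3 in turn left 1, 0 and 0 receptors higher and 0, 1 and 0 lower.

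The non-collagen partners of the matrix were taken in 2 lists. Of 18 basement membrane genes, 3 fell and 0 rose: the laminin chains Lama5 (−0.43, adjusted p 0.0202 in limma), Lama4 (−0.32) and Lamb1 (−0.21). That share of calls is near the 17.3% of all genes called in either direction. Lamc1 (0.14) and the proteoglycan Prelp (0.20, adjusted p 0.0518 in limma), named after their values were seen, lay above 0 on every array and were not called. Of 9 tested small leucine-rich proteoglycans, which bind fibrils, 5 fell and 0 rose. Ogn (−0.40), Fmod (−0.36), Omd (−0.35) and Lum (−0.53) had the smallest p among them, with adjusted p of 0.0186 for Ogn in limma. For Omd, Cy3 was above background on 1 of 3 arrays and the direction turned with median centring. With array 1, 2 or 3 left out in turn, the lower calls were 4, 0 and 0 for the basement membrane genes and 5, 0 and 0 for the proteoglycans.

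Markers of meningeal, choroid plexus and vascular cells, which make collagens, were described beside them. The background for these marker lists was 10.2% lower and 7.14% higher over all genes. Of 22 leptomeningeal fibroblast markers, 11 fell and 0 rose, with a median log2 ratio of −0.36 and medians of −0.31, −0.40 and −0.16 on arrays 1, 2 and 3. For Foxc2, one of the 11, Cy3 was above background on 1 of 3 arrays. Its direction relative to all probes turned with median centring. Igf2 (−0.74) and Aldh1a2 (−0.42) were among the 4 with the smallest p, beside Ogn and Fmod, which stand in the proteoglycan list too. Lum and Bgn, both called lower, and Dcn, not called, also stand in both lists. The falls in the 2 lists are therefore partly the same genes. The summed normalised intensity of this list was 13856 to 23132 units in older-mother pools, against 20702 to 24364 in young-mother pools. Of 20 choroid plexus epithelium markers, 5 fell and 0 rose, with medians of −0.67, −1.75 and −0.31 on the arrays. Kcne2, named after its values were seen, went the other way at −0.55, 0.25 and 3.20 (mean 0.97) and was not called. Its Cy5 signal was above background on 1 of 3 arrays. Ace (−0.71), Slc4a5 (−0.62), Steap1 (−1.08) and Sostdc1 (−1.22) had the smallest p. That list summed to 22166 to 108925 units in older-mother pools, against 119783 to 164674 in young-mother pools, without overlap, and array 2 was the lowest for 19 of its 20 genes.

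Of 18 pericyte and smooth muscle markers, 7 fell and 0 rose, with a median of −0.20. Mcam (−0.41), Vtn (−0.39), Acta2 (−0.40) and Pdgfrb (−0.50) led them, and the sums were 12531 to 14798 units in older-mother pools, against 16109 to 18262 in young-mother pools. Means lay below 0 for 15 of the 18. The pericyte markers Kcnj8 (0.24) and Rgs5 (0.23), named after their values were seen, lay above 0 on every array but were not called. Abcc9 averaged 0.04. Of 20 brain endothelial markers, 7 fell, among them Vwf (−0.54) and Cldn5 (−0.64), and 3 rose, among them Mfsd2a (0.82) and Flt1 (0.37). Their sums overlapped, at 25735 to 28122 units in older-mother pools, against 26415 to 27924 in young-mother pools. Signal above background in both channels on every array was found for 20 of 22 leptomeningeal, 18 of 20 choroid plexus, 17 of 18 pericyte and 19 of 20 endothelial markers. With array 1, 2 or 3 left out in turn, lower calls numbered 9, 1 and 0 for leptomeningeal, 5, 9 and 0 for choroid plexus, 7, 2 and 0 for pericyte and 7, 3 and 1 for endothelial markers. Medians of the choroid plexus, leptomeningeal and endothelial markers were lowest on array 2. For pericyte markers array 1 was lowest (−0.26, −0.19 and −0.15 on arrays 1, 2 and 3). Array 2 was also lowest for the receptor, procollagen processing, non-collagen basement membrane and proteoglycan lists, and array 3 for the folding and protease lists. Array 2 gave the lowest ratio for 25 of the 49 tested collagen probes. That is 51.0%, against 27.7% of all tested probes. Among the 25 were all 6 probes called lower, Col1a1, Col3a1, the second Col18a1 probe and the Col8a2 probe A_52_P302544. Col2a1, Col5a2 and Col11a1, with means of −0.08, −0.05 and −0.04, were among them too. The part of these cell types in the collagen ratios was not tested.

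**Figure D5:**
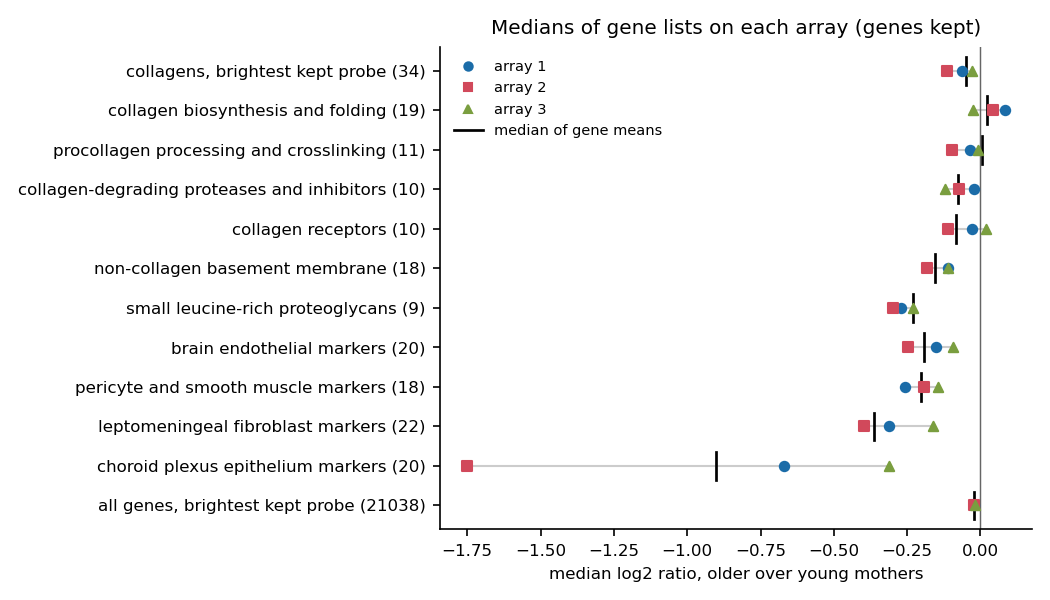
Median log2 ratio of older over young mothers (x axis) of each gene list on arrays 1 (circles), 2 (squares) and 3 (triangles), with the median of the gene means as a black bar and the number of tested genes in brackets. The collagens, at −0.050, lie near all genes, at −0.023, while leptomeningeal markers lie at −0.36 and choroid plexus markers at −0.90.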

How the data were processed

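Total RNA of pooled hippocampi was hybridised to 3 two-colour Agilent arrays of 60-base probes, all on 1 slide and scanned once, which leaves no batch to fit. The scanner files come, per the file headers, from Agilent Feature Extraction 10.10.1.1. Their median and mean spot signals and backgrounds are raw intensity values per the file headers, and the processed signals are intensity values corrected for background and dye. The log ratios in these files are log10 of Cy5 over Cy3, per the file headers, and the spot flags are of an other kind, 0 or 1, as deposited.

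The values used are the deposited log2 ratios (Cy3 over Cy5), for which the table states no steps. Normexp with an offset of 50 and loess with a span of 0.3 on the median signals returned them to within 5.0e-10. The offset pulls dim probes towards 0.

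Flagged spots were dropped and replicate spots averaged. Of 39429 probes, 27629 were kept (every array well above background in Cy3, or every array in Cy5), 11799 did not meet this filter and 1 had an unusable array. An intercept was fitted with limma 3.58.1 in R 4.3.3 (eBayes, two-sided, with 2 residual and 3.61 prior degrees of freedom), with Benjamini-Hochberg adjustment over all kept probes and a threshold of 0.05. Errors are SDs over arrays, whose precision their number limits. P-values set the mean ratio against the spread of the paired ratios between arrays, and not against the spread between animals. Pool intensities were taken after loess and Aquantile normalization.

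Symbols were updated through RefSeq GRCm38.p6 (28025 probes matched). Exon and UTR positions were not looked up, since that build differs from the mm9 of the probes. Values are given for each called collagen probe, each with a mean beyond 0.5 and the brightest probe of 12 collagen genes, for up to 4 called genes of each list and for up to 2 genes of a list without calls. The hippocampal markers were picked after the data were seen. The collagen genes and all lists were chosen with earlier results of these data known.

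The alternatives were mean signals, an offset of 16, no background correction, processed signals, median centring, scaling between arrays, no filter, a filter on both channels, robust eBayes with a trend, array weights, separate channels, a threshold of 0.1 and leaving out each array. The fit was tested on simulated data.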

Additional observations from a re-analysis of the deposited data

How the results depend on the processing

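The older- and young-mother pools of an array are paired by the array, and each ratio keeps that pair. With no replicate block, as separate channels, 0 collagen probes were higher and 2 lower, against 1 and 6 with the pairing, while calls over all tested probes numbered 5032, against 4589. Over all tested probes, the 4589 calls became 2987 with an offset of 16, 2620 with processed signals, 23113 with median centring, 11161 with array weights and 8423 at an adjusted p under 0.1. Leaving out one array gave 81 to 4099 calls. Collagen probes called higher numbered 0 with the offset of 16, 2 with processed signals, 16 with median centring, 3 with array weights and 2 at the threshold of 0.1, and 0 to 2 without one array. Those called lower numbered 2 with processed signals, 17 with median centring, 16 with array weights and 11 at the threshold of 0.1, and 0 to 6 without one array. The collagen median was −0.15 with processed signals and −0.10 with array weights. The fibrillar median was −0.14 with the offset of 16, −0.12 without background correction, −0.24 with processed signals, −0.13 with median centring and −0.13 to −0.040 without one array. The basement membrane median was −0.16 with processed signals and −0.18 with median centring. The median of the other collagens was −0.11 with processed signals, 0.044 with median centring and −0.081 to 0.019 without one array. The median of all tested probes was −0.019 with processed signals and −0.34 with median centring. Each class median thus lay above that of all tested probes with median centring.

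All 7 collagen calls were kept without array 1 and lost without array 2 (adjusted p 0.0697 to 0.174) and without array 3 (0.0595 to 0.122). With processed signals 1 of the 7, Col8a1, was called in the same direction. Signs of the ratios themselves, not set against the median of all probes, turned for several probes. Col4a2 was 0.0060 with the offset of 16, 0.023 with array weights and 0.058 without array 1 (−0.043 to 0.058 without one array). Col9a3 was −0.041 without background correction, −0.18 with processed signals, −0.062 with array weights and −0.037 to 0.069 without one array. The brightest Col25a1 probe was −0.26 with median centring, still above the median of all tested probes there (−0.34). Without one array it was −0.015 to 0.29. With median centring Col5a1 was 0.082 and Col8a1 0.044. The causes were not tested. Signals near background limit the 9 tested probes that were not above background in Cy3 on every array.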
